A study of Mus musculus with 16 samples.

Results

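The collagen genes encode the chains of the collagens, and 44 such genes were found among 21851 protein-coding genes of the GENCODE M21 annotation (mouse genome build mm10). They were chosen by their symbols alone, as every protein-coding gene named Col, a number, the letter a and a second number, and the rule uses no measured value. Chromatin immunoprecipitation followed by sequencing (ChIP-seq) for 3 histone marks was used to ask how these marks lie in young and aged hematopoietic stem cells (HSCs). HSCs were taken from the bone marrow of female C57BL/6 mice at 10 weeks (young) or 20 months (aged) of age, with no genotype or treatment between the groups. Both ages were sorted as Sca-1+ c-kit+ CD150+ cells that were negative for Lin, IL-7, Flt3, CD34 and CD48. Of the 16 libraries in 8 groups, 2 were made for each mark at each age with antibodies to H3K4me3, H3K27me3 or H2AK119ub1, and 2 input libraries were made for each age. Peaks came as 1 pooled list per mark and age. Lists of single replicates were not used here, so the counts have no spread between replicates and differences between young and aged lists have no test.

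Collagens are triple helices of 3 chains that are secreted and built into the extracellular matrix. Fibrillar collagens form the fibers of bone, skin, tendon and cartilage, type IV collagens form the networks of basement membranes, and the other classes link, anchor or coat these structures or span the cell membrane. In the bone marrow most collagen is made by stromal, bone and vessel cells rather than by blood cells. H3K4me3 is a mark of promoters that are active or open to transcription. H3K27me3 is laid down by Polycomb repressive complex 2 and H2AK119ub1 by Polycomb repressive complex 1, and both are known at the promoters of genes of other lineages that a cell keeps silent. Promoters rich in CpG dinucleotides are the usual sites of H3K4me3 and of Polycomb in mouse cells.

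Promoter sequences of 4 collagen genes are shown because they stand for different arrangements of the marks, described below for each gene. They are RefSeq promoters of assembly GRCm38.p6, whose chromosomes are those of mm10, and run 5′ to 3′ on the gene's strand from 250 bases before the RefSeq start site to 50 bases after it. Each CpG is in capitals. The Col4a1 sequence (chr8:11312777-11313076, minus strand) lies between the divergent genes Col4a1 and Col4a2, which had H3K4me3 in the young list and H2AK119ub1 in the aged list. Col25a1 (chr3:130180595-130180894, plus strand) had H3K4me3 and H3K27me3 at both ages. Col9a2 (chr4:121039316-121039615, plus strand) had both Polycomb marks at both ages. Col1a2 (chr6:4505368-4505667, plus strand) had H3K4me3 in the aged list and no other mark.
Col4a1: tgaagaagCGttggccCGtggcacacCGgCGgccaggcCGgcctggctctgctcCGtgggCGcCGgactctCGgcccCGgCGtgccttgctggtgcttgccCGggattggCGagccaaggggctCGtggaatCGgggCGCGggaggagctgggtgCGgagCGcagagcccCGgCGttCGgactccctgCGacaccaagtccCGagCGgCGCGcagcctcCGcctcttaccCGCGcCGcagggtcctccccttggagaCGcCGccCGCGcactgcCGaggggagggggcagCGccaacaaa
Col25a1: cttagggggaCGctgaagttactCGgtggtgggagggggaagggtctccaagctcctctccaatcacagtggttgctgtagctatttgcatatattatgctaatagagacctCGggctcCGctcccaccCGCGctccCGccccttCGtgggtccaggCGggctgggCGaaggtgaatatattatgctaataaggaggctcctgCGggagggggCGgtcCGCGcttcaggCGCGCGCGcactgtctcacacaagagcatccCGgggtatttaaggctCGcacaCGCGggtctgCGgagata
Col9a2: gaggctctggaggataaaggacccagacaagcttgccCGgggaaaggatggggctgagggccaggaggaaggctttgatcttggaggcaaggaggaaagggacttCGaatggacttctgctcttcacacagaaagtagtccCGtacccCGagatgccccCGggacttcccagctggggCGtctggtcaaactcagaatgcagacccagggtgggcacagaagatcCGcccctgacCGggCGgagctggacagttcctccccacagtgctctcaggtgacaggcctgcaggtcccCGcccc
Col1a2: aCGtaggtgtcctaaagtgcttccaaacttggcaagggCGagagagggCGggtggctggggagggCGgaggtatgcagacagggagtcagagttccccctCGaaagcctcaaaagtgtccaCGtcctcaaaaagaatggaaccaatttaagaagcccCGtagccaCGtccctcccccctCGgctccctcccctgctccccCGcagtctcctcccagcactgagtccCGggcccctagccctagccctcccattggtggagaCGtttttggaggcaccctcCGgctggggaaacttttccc

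The 4 sequences differed in CpG content. The Col4a1 sequence held 37 CpG dinucleotides, and 5.58% of the 32851 RefSeq promoter entries held as many or more, against a median of 7. Col25a1 held 23, Col1a2 held 13 and Col9a2 held 10 CpG dinucleotides. An H3K4me3 peak overlapped the printed bases of Col25a1 at both ages and those of Col1a2 in the aged list. Regions of young H3K27me3 and of aged H2AK119ub1 overlapped those of Col9a2. No peak of any list overlapped the printed Col4a1 bases, since the peaks there lay to either side. RefSeq entries were found for 35 of the 44 symbols. Those without an entry were Col1a1, Col2a1, Col4a3, Col5a2, Col9a3, Col12a1, Col14a1, Col22a1 and Col26a1.

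The H3K4me3 lists held 11371 peaks in young and 6723 in aged HSCs, the H3K27me3 lists 63142 and 20419 regions, and the H2AK119ub1 lists 2593 and 17768 regions. The lists thus differed in length between the ages, in opposite directions for the 2 Polycomb marks, and counts over the whole set of collagen genes are given beside the same share over all genes of that list. The depth behind the broad marks is unknown, since the lists do not give it. At the H3K4me3 peaks of collagen genes, the summit held 15 to 25 reads, so that a peak there rested on few reads. A promoter that is missing from a list may carry the mark below the threshold of the peak caller. Of 14 markers of HSCs and blood, 8 had H3K4me3 at the promoter in young HSCs (57.1%, against 33.8% of all genes). In aged HSCs 7 had it (50.0%, against 23.3%). Mecom, Procr, Tal1, Runx1 and Ptprc were among them at both ages, and Kit in the aged list alone. Flt3 had young H3K27me3. No mark was listed at 4 of the 14, which were Ly6a (Sca-1), Slamf1 (CD150), Cd48 and Spi1. Cells of the mesenchymal stroma are known for making collagen. Of their 9 markers, H3K4me3 was listed at 1 in young HSCs (11.1%, Cxcl12) and at 2 in aged HSCs (22.2%, Cxcl12 and Prrx1). H3K27me3 was listed at 5 in young HSCs (55.6%, against 16.0% of all genes) and at 4 in aged HSCs (44.4%, against 8.24%). Of 5 endothelial markers, 2 had H3K4me3 in young HSCs (40.0%, against 33.8% of all genes) and 3 in aged HSCs (60.0%, against 23.3%). The aged share was above the 50.0% of the HSC and blood markers, so H3K4me3 at these markers did not set the 2 cell types apart.

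Collagen promoters carried Polycomb marks more often than promoters at large, and H3K4me3 less often. The promoter reached 1 kb upstream and downstream of each start site, and it carried a mark when a peak overlapped it. H3K27me3 was listed at 28 of 44 collagen promoters in young HSCs (63.6%, against 16.0% of all genes) and at 15 in aged HSCs (34.1%, against 8.24%). H2AK119ub1 was listed at 2 collagen promoters in young HSCs (4.55%, against 1.91%) and at 16 in aged HSCs (36.4%, against 14.0%). H3K4me3 was listed at 10 collagen promoters in young HSCs (22.7%, against 33.8%) and at 5 in aged HSCs (11.4%, against 23.3%). The share of collagen promoters with H3K27me3 was thus 3.97 times that of all genes in young HSCs and 4.14 times in aged HSCs, although the aged list held far fewer regions. At 11 promoters no mark was listed (25.0%, against 45.0% of all genes). The differences between the ages depended on the length of the lists. With the same number of top-ranked peaks taken from the young and the aged list of a mark, H3K27me3 was at 19 young and 15 aged collagen promoters (against 11.2% and 8.24% of all genes), H2AK119ub1 at 2 and 5 (against 1.91% and 2.92%), and the order turned for H3K4me3, with 4 young and 5 aged promoters (against 23.4% and 23.3%). The bars of the 6 promoter counts show the contrast between the Polycomb marks and H3K4me3.

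**Figure D1:**
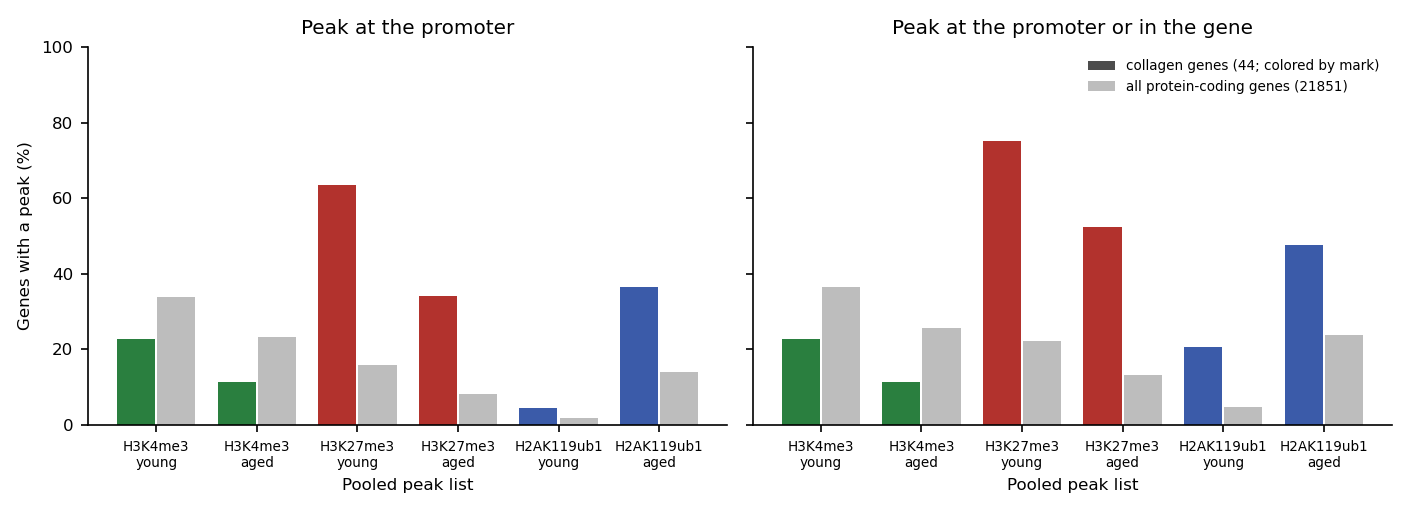
Share of genes (%) with a peak at the promoter (left) and at the promoter or in the gene (right) in each of the 6 pooled lists. Colored bars are the 44 collagen genes and gray bars all 21851 protein-coding genes; the colored bar is above the gray one for H3K27me3 (63.6% against 16.0% at young promoters) and H2AK119ub1, and below it for H3K4me3.

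Among the 11 fibrillar collagens, 8 had H3K27me3 at the promoter in young HSCs and 5 in aged HSCs, and 5 had H2AK119ub1 in aged HSCs. Col2a1, the chain of cartilage type II collagen, held the widest region of any collagen promoter. A young H3K27me3 region of 6223 bp (chr15:97998095-98004317, 3.63-fold) ran over coding exons downstream of its start, and a second of 1787 bp lay upstream. In aged HSCs the promoter held H3K27me3 regions of 294 bp and 486 bp, each overlapped by an H2AK119ub1 region (1245 bp and 345 bp). Its H3K4me3 peak, in an intron downstream of the start, was listed in young HSCs (chr15:98003842-98004159, 3.61-fold) and not in aged HSCs. Col24a1 and Col27a1, minor fibrillar chains, had H3K27me3 at both ages and H2AK119ub1 in aged HSCs. At Col24a1 the young H3K27me3 region measured 4112 bp and the aged region 278 bp. Narrower aged H3K27me3 regions were found at promoters in general. Over all genes the median width at promoters was 845.5 bp in the young and 466 bp in the aged list. At collagen promoters it was 858 bp and 474 bp.

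The chains of the most abundant fibers did not share 1 pattern. Col1a1 and Col3a1, chains of the type I and type III collagens of bone, skin and vessels, had a single young H3K27me3 region at the promoter, of 711 bp (3.77-fold, over UTR and coding exon) and 622 bp (3.03-fold, in an intron), and no mark there in aged HSCs. Col1a2, the other chain of type I collagen, had no Polycomb mark in any list. An aged H3K4me3 peak of 220 bp lay over its UTR (chr6:4505597-4505816, 3.54-fold, 15 reads at the summit), and Col1a2 was the 1 collagen gene with H3K4me3 in the aged list alone. Col5a1 and Col5a2, chains of type V collagen, which starts fibril assembly, both had young H3K27me3. Only at Col5a2 was it also listed in aged HSCs, as a region of 1108 bp within the young one of 2414 bp, whereas Col5a1 had 2 aged H2AK119ub1 regions (3.52-fold and 3.91-fold) that overlapped positions of its young H3K27me3. Col11a1 and Col11a2, chains of type XI collagen of cartilage, had no H3K27me3 at either age. At the promoter, Col11a1 had a young H3K4me3 peak (213 bp, 3.61-fold) and Col11a2 an aged H2AK119ub1 region (367 bp, 3.18-fold). Within its introns Col11a2 also held H2AK119ub1 regions in the young list (305 bp, 3.04-fold) and the aged list (245 bp, 3.53-fold). Col5a3 had H3K27me3 at both ages and no other mark.

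The 6 type IV collagens are arranged as 3 head-to-head pairs, in which each pair shares the stretch between its start sites. These were the only promoters that a collagen gene shared with another protein-coding gene, so the members of a pair are not separate observations. The start sites of Col4a1 and Col4a2, whose chains make up the network of most basement membranes, lie 21 bp apart. H3K4me3 peaks lay on both sides of them in young HSCs, at chr8:11311927-11312195 (3.55-fold, 18 reads) and chr8:11313394-11313686 (3.83-fold, 17 reads). In aged HSCs no H3K4me3 was listed there, and an H2AK119ub1 region (chr8:11313410-11313739, 3.50-fold) overlapped the second of these positions. With lists of equal length, neither the young H3K4me3 nor the aged H2AK119ub1 of this pair was kept. Neither gene held an H3K27me3 region at either age, from 1 kb before the start to the end of the gene, whereas 8 aged H2AK119ub1 regions were counted for Col4a1 and 9 for Col4a2.

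The other type IV pairs, whose chains are found in specialized basement membranes such as those of the kidney, had opposite promoter marks. Col4a3 and Col4a4 have start sites 127 bp apart. H3K27me3 regions of 620 bp (3.67-fold) and 984 bp (3.03-fold) lay on either side in young HSCs, and no mark was listed at these promoters in aged HSCs. Col4a5 and Col4a6, on the X chromosome, have start sites 1309 bp apart. They shared a young H3K27me3 region of 200 bp (3.25-fold), to which a region of 1035 bp was added on the Col4a6 side, and again no mark was listed at the promoters in aged HSCs. None of these 4 promoters had H3K4me3 in any list. Away from its promoter, Col4a6 also held 1 young and 5 aged H2AK119ub1 regions. The maps of the 3 pairs show H3K4me3 in the first pair alone and H3K27me3 in the others. H2AK119ub1 appears in the first pair and within Col4a6.

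**Figure D2:**
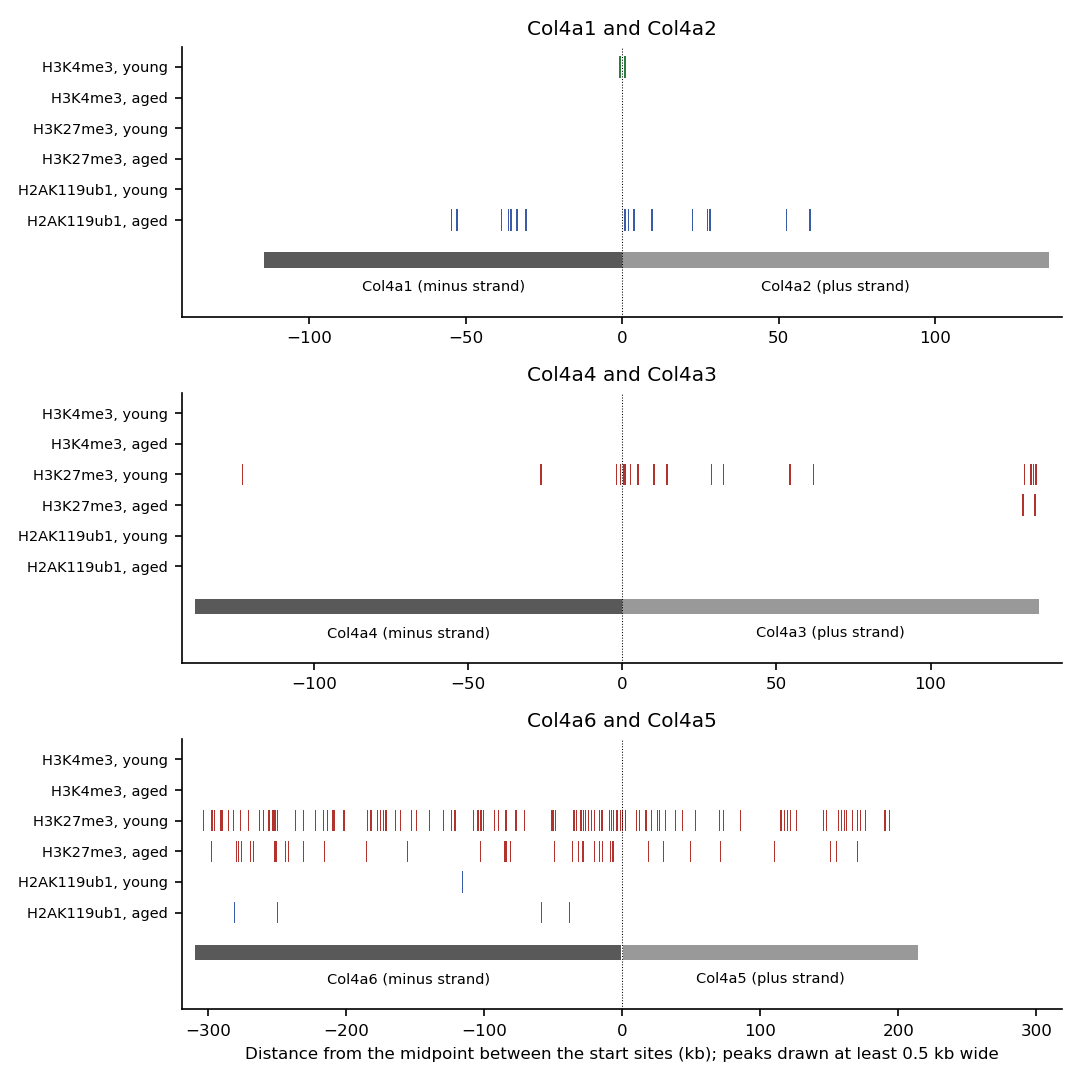
Peaks of the 6 lists along the 3 head-to-head pairs of type IV collagen genes, against distance (kb) from the midpoint between the start sites (dotted line); gray bars are the gene records and colored marks are peaks. Col4a1 and Col4a2 hold H3K4me3 and aged H2AK119ub1 and no H3K27me3. Col4a6 holds 94 young and 38 aged H3K27me3 regions, and 1 young and 5 aged H2AK119ub1 regions.

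The type VI collagens, which form beaded filaments around cells, were the class with the smallest share of marked promoters. Of the 6 genes, H3K27me3 was listed at the promoter of Col6a6 in young HSCs, as 3 regions of 200 bp to 906 bp, and at none of the others. A share of 1 in 6 is near the 16.0% of all genes. Col6a1 and Col6a2 held no peak of any list along the whole gene. Col6a3 held no promoter mark but 20 young H3K27me3 regions within the gene, covering 10.1% of it, and 1 aged region. Col6a5 held 16 and Col6a4 held 3 young regions and no aged one.

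The fibril-associated collagens, which sit on the surface of fibrils, split into marked and unmarked genes. Of 9 genes, 6 had H3K27me3 at the promoter in young and 5 in aged HSCs, and 4 had H2AK119ub1 in aged HSCs. Col9a2 and Col12a1 were the 2 collagen genes with H2AK119ub1 at the promoter in young HSCs. At Col9a2, a chain of cartilage type IX collagen, a young H3K27me3 region of 2093 bp (chr4:121038839-121040931, 3.78-fold) enclosed a young H2AK119ub1 region of 224 bp (3.69-fold). In aged HSCs the H3K27me3 region measured 240 bp and the H2AK119ub1 region 619 bp. At Col12a1, which is found in tendon and ligament, all 3 marks were listed in young HSCs, with H3K27me3 over 3975 bp (3.63-fold), H3K4me3 over 339 bp (3.63-fold) and H2AK119ub1 over 200 bp (2.85-fold). H3K4me3 was not listed there in aged HSCs and both Polycomb marks were. Col14a1, a relative of Col12a1, had H3K4me3 upstream of its start at both ages (308 bp, 3.43-fold in young and 271 bp, 4.20-fold in aged HSCs), overlapping H3K27me3 at both ages. Col19a1 had a young H3K27me3 region of 4967 bp, the second widest of the collagen promoters, and 2 aged regions of 318 bp and 498 bp. Col9a1, Col16a1 and Col20a1 had no promoter mark.

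The transmembrane collagens, which are anchored in the cell membrane, had H3K4me3 at 3 of 4 promoters in young HSCs (Col13a1, Col23a1 and Col25a1), each together with H3K27me3. Col23a1 had the second highest H3K4me3 enrichment among the collagens (4.86-fold, 25 reads) and had an H3K4me3 peak in the aged list (4.50-fold, 22 reads) at another position near the start. Col25a1 had H3K4me3 over the start at both ages, of 616 bp (4.23-fold, 20 reads) in young and 391 bp (3.13-fold, 17 reads) in aged HSCs. H3K27me3 overlapped these peaks and reached further downstream, over 971 bp and 538 bp, and H2AK119ub1 was listed in aged HSCs (321 bp, 3.18-fold). Col17a1, a collagen of the junctions that fix epithelia to the basement membrane, held no peak in the whole gene.

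Of the short-chain collagens, Col8a1, a collagen of vessel walls and the cornea, held the strongest H3K4me3 peak of any collagen gene. It measured 777 bp in young HSCs (chr16:57754750-57755526, 5.31-fold, 24 reads) and 236 bp in aged HSCs (4.42-fold, 19 reads), at overlapping positions. Young H3K27me3 regions of 720 bp and 599 bp overlapped it, and an aged H2AK119ub1 region of 416 bp (3.29-fold) overlapped the aged peak. Its partner Col8a2 had H3K27me3 at both ages and aged H2AK119ub1, without H3K4me3. Col10a1, a collagen of growth plate cartilage, held no peak. Of the remaining genes, Col15a1 had H3K27me3 at both ages and aged H2AK119ub1, as did Col26a1, whose aged H2AK119ub1 region measured 1064 bp. Col18a1, the source of endostatin, and Col7a1, the anchoring fibril chain of skin, had H3K27me3 in the young list and no promoter mark in the aged list. Col28a1 held no peak.

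**Figure D3:**
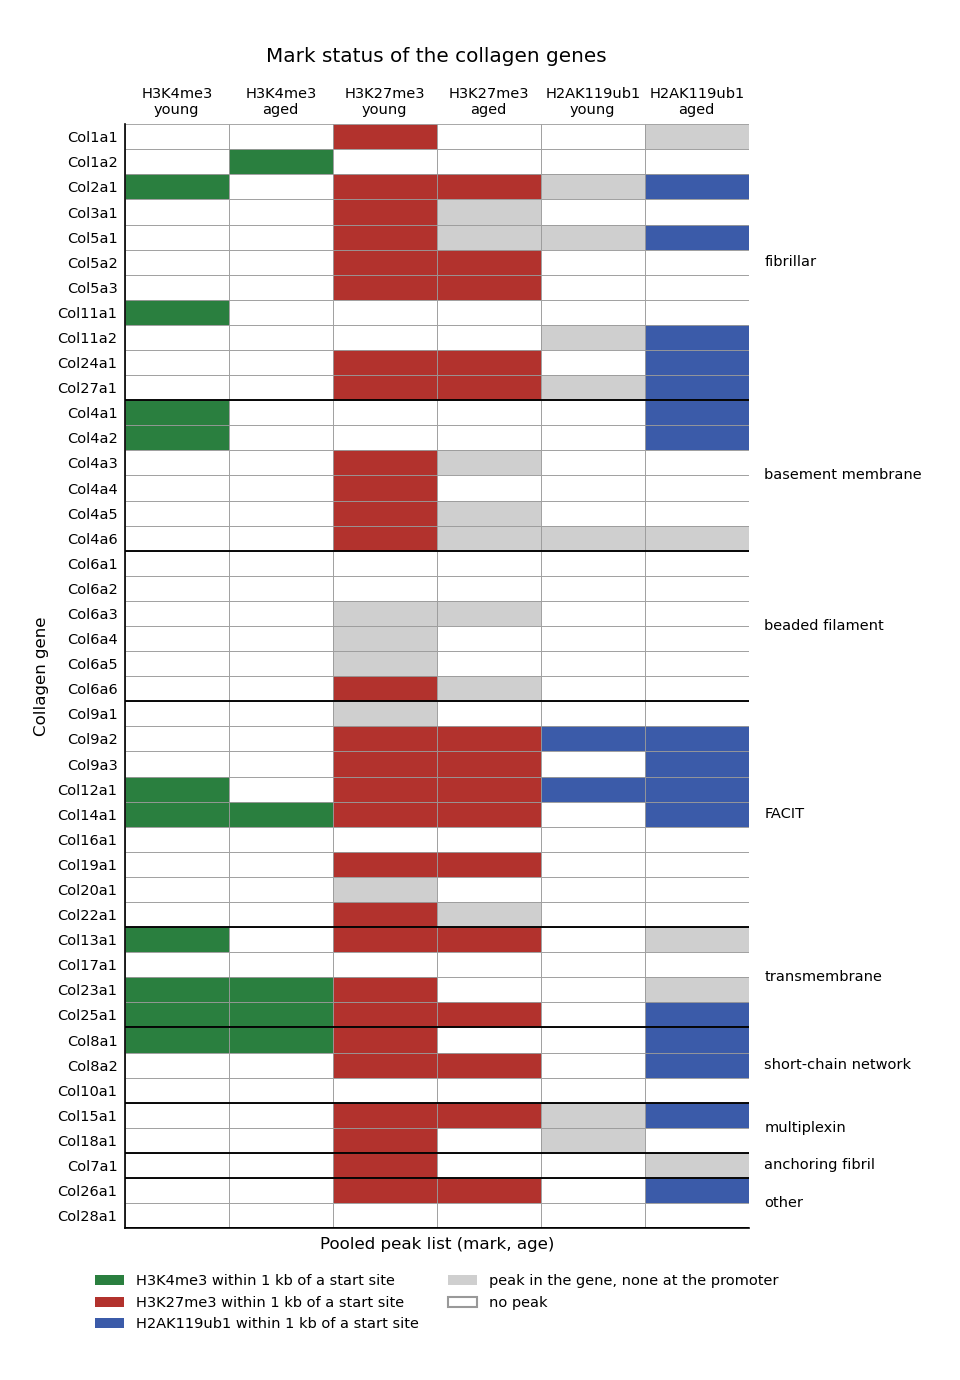
Status of each of the 44 collagen genes (rows, grouped by class) in the 6 pooled lists (columns). Colored cells have a peak within 1 kb of a start site, gray cells a peak in the gene but none at the promoter, and white cells no peak; H3K27me3 fills 28 promoter cells in young and 15 in aged HSCs, and H2AK119ub1 2 and 16.

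The aged H3K27me3 promoters were a subset of the young ones, which nearly held over all genes too. All 15 aged collagen promoters with H3K27me3 were also in the young list, as were 95.0% of all aged H3K27me3 promoters. They made up 34.1% of the collagen promoters, against 7.83% of all genes with H3K27me3 at both ages. No collagen promoter was in the aged list alone (against 0.412% of all genes). The other 13 young promoters were in the young list alone (29.5%, against 8.22%). With lists of equal length this no longer held, since Col5a3 and Col9a3 were then in the aged list alone. Of the young collagen promoters, 53.6% were thus also listed in aged HSCs, close to the 48.8% of all young H3K27me3 promoters. The promoters listed at both ages had the wider young regions. Their widest young region at the promoter had a median of 2082 bp (605 bp to 6223 bp), and 12 of 15 reached 1 kb (80.0%). At the 13 promoters of the young list alone, the median was 858 bp (200 bp to 1668 bp) and 2 reached 1 kb (15.4%, Col4a6 and Col5a1). Over all genes the medians were 2107 bp and 688 bp, and the shares 80.9% and 35.5%. The median of the strongest enrichment was 3.63-fold and 3.25-fold in the collagen groups. Of these 13 genes, 7 still held an aged H3K27me3 region within the gene (Col3a1, Col4a3, Col4a5, Col4a6, Col5a1, Col6a6 and Col22a1), and 6 held none (Col1a1, Col4a4, Col7a1, Col8a1, Col18a1 and Col23a1).

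H2AK119ub1 followed the opposite order of ages. Both young collagen promoters with H2AK119ub1 were also in the aged list, as were 78.4% of all young H2AK119ub1 promoters. The mark was thus listed at both ages at 4.55% of collagen promoters (against 1.50% of all genes). No collagen promoter had it in the young list alone (against 0.412%), and 14 had it in the aged list alone (31.8%, against 12.5%). Most of the aged H2AK119ub1 lay at promoters that had H3K27me3 in young HSCs, namely 13 of 16 (81.2%, against 56.3% over all genes). Whether or not H2AK119ub1 was listed, 63.6% of collagen promoters and 16.0% of all promoters had young H3K27me3. The share of 81.2% thus stood nearer to its base than the 56.3% over all genes. It was listed at 11 of the 15 promoters with H3K27me3 at both ages (73.3%, against 62.7%) and at 2 of the 13 with H3K27me3 in the young list alone (15.4%, Col5a1 and Col8a1, against 36.1%). The 3 without young H3K27me3 were Col11a2 and the pair Col4a1 and Col4a2.

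Within an age, several collagen promoters held more than 1 mark. H3K27me3 and H2AK119ub1 were both listed at 2 collagen promoters in young HSCs (against 1.65% of all genes) and at 11 in aged HSCs (25.0%, against 4.99%). The aged count was 4 with the same number of peaks taken from the young and aged lists and 2 with peaks of a −log10 q-value from 2 upwards. H3K4me3 and H3K27me3, the pair known as bivalent when both are on the same promoter, were listed at 7 collagen promoters in young HSCs (15.9%, against 2.96%), which were Col2a1, Col8a1, Col12a1, Col13a1, Col14a1, Col23a1 and Col25a1. The young count was 2 with lists of equal length. In aged HSCs both were listed at Col14a1 and Col25a1 (4.55%, against 0.792%), and at none with a −log10 q-value from 2 upwards. Seen from H3K4me3, 7 of 10 young collagen promoters with this mark also had H3K27me3 (70.0%), against 8.74% of all promoters with H3K4me3. That share was close to the 63.6% of collagen promoters with young H3K27me3, whether or not they had H3K4me3. In aged HSCs it was 2 of 5 (40.0%), beside 34.1% of collagen promoters with aged H3K27me3. Over all genes, young H3K27me3 was less frequent at promoters with H3K4me3 (8.74%) than at all promoters (16.0%). What lies behind the joint count was not tested. Of the 12 young H3K4me3 peaks, 8 overlapped an H3K27me3 region itself. The 3 with H3K4me3 and no H3K27me3 were Col4a1, Col4a2 and Col11a1. Cells pooled in 1 library cannot show whether both marks lay on the same chromosome copies.

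H3K4me3 at collagen genes was listed at promoters alone, where most genes with this mark had it. All 12 young and all 5 aged peaks lay within 1 kb of a start site, so the counts for whole genes were again 10 and 5 (against 36.6% and 25.6% of all genes). Over all genes, 7389 of the 8001 genes with young H3K4me3 had it at the promoter, and 5089 of the 5595 with aged H3K4me3. Their median enrichment was 3.62-fold in young and 4.20-fold in aged HSCs, beside 4.04-fold and 4.20-fold over all peaks at promoters. Col8a1, Col14a1, Col23a1 and Col25a1 had H3K4me3 at both ages (9.09%, against 17.5% of all genes). Another 6 had it in the young list alone (13.6%, against 16.3%), namely Col2a1, Col4a1, Col4a2, Col11a1, Col12a1 and Col13a1, and Col1a2 in the aged list alone (2.27%, against 5.78%).

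Along whole genes, from 1 kb before the first start site to the end, H3K27me3 was listed in 33 collagen genes in young HSCs (75.0%, against 22.2%) and in 23 in aged HSCs (52.3%, against 13.3%). H2AK119ub1 was listed in 9 (20.5%, against 4.63%) and in 21 (47.7%, against 23.8%). For H2AK119ub1 the order of the ages turned with lists of equal length, to 8 aged genes. In 6 genes no list held a peak (13.6%, against 37.0%), which were Col6a1, Col6a2, Col10a1, Col16a1, Col17a1 and Col28a1. Collagen genes are long, with a median of 114 kb against 17.4 kb over all genes, and a longer gene can hold more peaks by its length. Among genes of 100 kb to 200 kb, young H3K27me3 was listed in 14 of 18 collagen genes (77.8%, against 38.0% of all such genes) and at the promoter of 66.7% (against 25.3%). Among genes of 20 kb to 50 kb it was listed in 7 of 11 (63.6%, against 20.1%). Of the 3 collagen genes of 50 kb to 100 kb, 2 held it and none had it at the promoter. In the other length classes the share of collagen genes was above that of all genes of like length.

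Most H3K27me3 regions in collagen genes lay away from the promoters. The genes held 372 young regions, 43 of them at promoters and 289 within introns alone, and 115 aged regions, 24 of them at promoters. They covered 201 kb (3.71% of the collagen genes, against 1.93% over all genes) in young and 51.1 kb (0.944%, against 0.475%) in aged HSCs. A large part of this lay in the X-linked genes Col4a6 and Col4a5. Col4a6 held 94 young regions covering 50.4 kb, the 26th largest covered length among the 21851 genes and the 8th among the 948 genes of the X chromosome, and 38 aged regions covering 18.4 kb. Col4a5 held 48 young regions covering 18.4 kb and 10 aged regions covering 2.90 kb. Genes of the X chromosome had more H3K27me3 in general, 5.97% of their length in young and 1.60% in aged HSCs, beside 13.1% and 4.06% in this pair. Without the pair, the 42 autosomal collagen genes were covered to 2.70% in young and 0.610% in aged HSCs, against 1.75% and 0.426% over all autosomal genes. Among the autosomal collagen genes, the largest young covered lengths were those of Col24a1 (35 young regions, 19.7 kb), which was above that of Col4a5, and Col22a1 (31 young regions, 13.4 kb). By share of the gene, the largest values among the collagen genes were those of Col9a2, covered to 28.0% in young and 13.3% in aged HSCs, and Col2a1, covered to 23.2% and 9.74%.

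H2AK119ub1 covered 2.96 kb of the collagen genes in young HSCs (0.0548%, against 0.0514% over all genes) and 28.4 kb in aged HSCs (0.524%, against 0.445%). By length, the collagen genes were thus close to all genes for this mark, unlike at their promoters. In aged HSCs the largest covered lengths were in Col27a1 (10 regions, 4.26 kb), Col2a1 (4 regions, 3.65 kb) and Col4a1 (8 regions, 3.09 kb). In young HSCs they were in Col27a1 (0.667 kb), Col15a1 (0.422 kb) and Col2a1 (0.318 kb). Of the 69 aged H2AK119ub1 regions, 19 overlapped an aged H3K27me3 region.

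Around the first start site, H3K27me3 in young HSCs spread over several kilobases on both sides. In bins of 250 bp, it was highest from 250 bp to 750 bp after the start, where 52.3% of collagen genes (23 of 44) held a region in each bin, against 8.92% of all genes in the first of them. In aged HSCs the highest bin was the one just before the start, with 22.7% for H3K27me3 (against 2.54%) and 20.5% for H2AK119ub1 (against 3.02%). H3K4me3 in young HSCs was highest between 500 bp and 750 bp after the start, with 13.6% (against 15.2%). The profiles show the wider spread of H3K27me3 and the narrow H3K4me3.

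**Figure D4:**
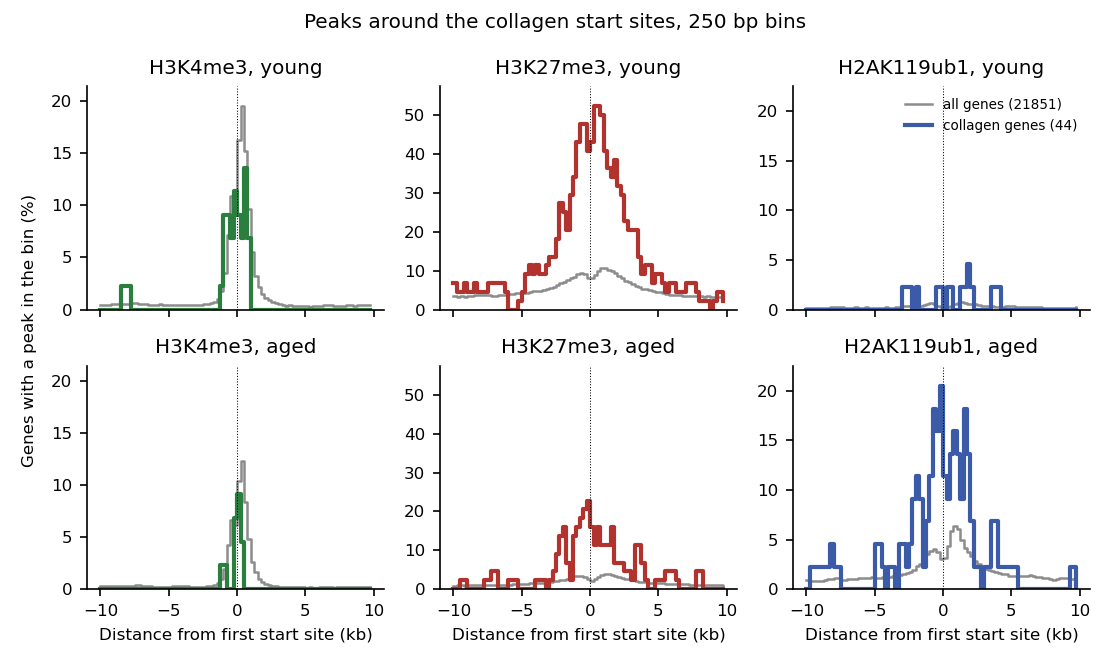
Percent of genes with a peak in each 250 bp bin within 10 kb of the first start site, for the 44 collagen genes (colored) and all 21851 genes (gray), in young (top) and aged HSCs (bottom). Young H3K27me3 reaches 52.3% of collagen genes, and aged H3K27me3 and H2AK119ub1 reach 22.7% and 20.5%; 1 collagen gene equals 2.27%.

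The mark at a collagen promoter went with its CpG content, which the choice of genes did not use. CpG content is given as CpG dinucleotides observed over those expected from the C and G bases, in the promoter at the first start site. Its median was 0.365 over the collagen genes, with a range from 0.0564 (Col28a1) to 0.817 (Col19a1), against 0.484 over all genes. The 15 promoters with H3K27me3 at both ages had a median of 0.532, the 13 with H3K27me3 in the young list alone 0.342, and the 16 without it 0.303. Over all genes the medians of these groups were 0.561, 0.489 and 0.469, in the same order. Promoters with H3K4me3 at either age had a median of 0.604 and those without 0.319 (0.638 and 0.272 over all genes). The 11 promoters without any mark had a median of 0.275 and none reached 0.6 (0.218 and 14.0% over all genes). The link of marks to CpG content is thus not particular to the collagen genes. The Col4a1 and Col4a2 promoters, at 0.761 and 0.769, were the exceptions among the CpG-rich promoters, since they had no H3K27me3.

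At each level of CpG content, young H3K27me3 was listed at a larger share of collagen promoters than of all promoters. With a CpG content of 0.6 or more, young H3K27me3 was listed at 8 of 10 collagen promoters (80.0%, against 17.4%). From 0.3 to 0.6 it was listed at 16 of 22 (72.7%, against 22.5%), and under 0.3 at 4 of 12 (33.3%, against 8.89%). In aged HSCs the counts were 6 of 10 (60.0%, against 9.55%), 9 of 22 (40.9%, against 12.5%) and none of 12 (against 3.08%). Aged H2AK119ub1 was listed at 7 of 10 (70.0%, against 19.3%), 9 of 22 (40.9%, against 18.8%) and none of 12 (against 4.26%). Young H3K4me3 was listed at 6 of 10 CpG-rich collagen promoters (60.0%, against 57.8%), at 4 of 22 from 0.3 to 0.6 (18.2%, against 39.1%) and at none of 12 under 0.3 (against 4.76%). For aged H3K4me3 the counts were 2 of 10 (20.0%, against 39.9%), 3 of 22 (13.6%, against 27.1%) and none of 12 (against 3.03%).

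**Figure D5:**
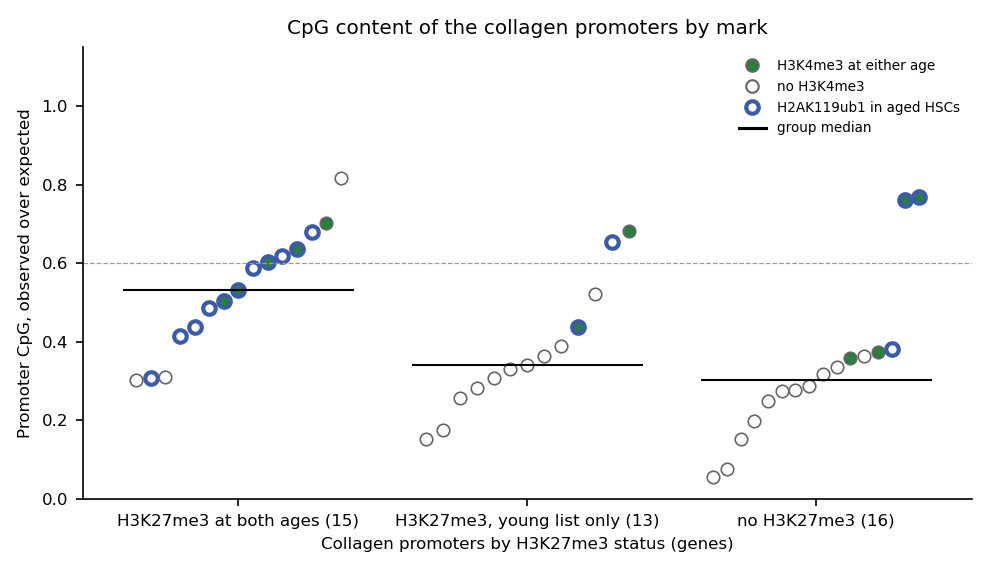
CpG content (observed over expected) of the 44 collagen promoters by H3K27me3 status, with 1 point per gene and the group median as a line (0.532, 0.342 and 0.303). Green points have H3K4me3 at either age, blue rims mark aged H2AK119ub1, and the dashed line is at 0.6.

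Marks were also counted at the genes that build, bind or degrade collagen. Of 31 genes of collagen biosynthesis, H3K4me3 was listed at 15 promoters in young HSCs (48.4%, against 33.8% of all genes) and at 9 in aged HSCs (29.0%, against 23.3%). H3K27me3 was listed at 8 (25.8%, against 16.0%) and 4 (12.9%, against 8.24%). H2AK119ub1 was listed at none in young HSCs (against 1.91%) and at 11 in aged HSCs (35.5%, against 14.0%). Young H3K4me3 was found at Serpinh1, the collagen chaperone, and at the hydroxylase genes Plod1 and Plod2, but not at Crtap, whose product acts in prolyl hydroxylation. Among the lysyl oxidases, which cross-link collagen outside the cell, Lox and Loxl4 had young H3K27me3 and Loxl3 had H3K4me3 at both ages. The other genes of biosynthesis with young H3K27me3 were P4ha2, P4ha3, Adamts2, Adamts14, Pcolce2 and Colgalt2. Of 10 collagen receptors, H3K4me3 was listed at 3 in young HSCs (30.0%, against 33.8%), which were Itga1, Itga2 and Itga11, and at 1 in aged HSCs (10.0%, against 23.3%), which was Itga1. H3K27me3 was listed at 4 (40.0%, against 16.0%) and 2 (20.0%, against 8.24%). The receptor Ddr1 held 4 young H3K27me3 regions and 3 aged H2AK119ub1 regions at its promoters. Of 8 genes of collagen degradation, Ctsl and Mmp14 had H3K4me3 at both ages (25.0%, against 33.8% and 23.3%), and Mmp9 had H3K27me3 in young and H2AK119ub1 in aged HSCs.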

How the data were processed

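ChIP-seq was done by the authors on HSCs of young and aged mice. Cells were cross-linked, chromatin was cut with micrococcal nuclease and sonication, and single reads were aligned to mm10 with Bowtie2. The submitters' processing notes name MACS2 2.2.6, with no parameters. The deposited lists give 1 pooled set of peaks per mark and age, in the MACS narrow layout for H3K4me3 and the broad layout for the Polycomb marks. The peak names of the broad lists carry a single library number, and whether they hold both replicates is uncertain. For each peak the deposited lists hold its fold enrichment (a ratio, not logged), and the −log10 of the p-value and of the q-value, as the authors' caller wrote them. For broad regions these are averages over the region.

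Peaks of chromosomes 1 to 19 and of both sex chromosomes were overlapped with genes and 41438 start sites of protein-coding transcripts in the GENCODE M21 basic annotation, with a minimum overlap of 1 bp, using pandas 2.3.3, numpy 2.4.6 and pysam 0.24.0 under Python 3.11.15. Promoters reached 1 kb to each side of every start site. The H3K4me3 pileup was recovered from the fold and p-value and came out whole, within 0.001 on the −log10 p scale, for 100% of the peaks. The overlap code was tested on simulated data. CpG content was read from the mm10 sequence over 2 kb at the first start site. Scipy 1.17.1 gave the Poisson probabilities and matplotlib 3.10.9 the plots. With 1 list per mark and age, no test was made and shares are descriptions. Collagen genes were named where a promoter held several marks, H3K4me3, or marks that differed between ages, or where the covered length was among the 3 largest of a broad list, and all others were accounted for in their class. The collagen genes and the lists of other genes were chosen with earlier results of these data known. Files of single replicates and of the inputs were not analysed here. Alternatives were a −log10 q-value of at least 2, lists of equal length, an overlap of at least 50% of the peak, promoters of 500 bp or 2 kb, 1 start site per gene, and all GENCODE transcripts. The result for markers of mature blood cells is not reported here.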

Additional observations from a re-analysis of the deposited data

How the results depend on the processing

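Of 115 counts recomputed under the alternatives, 92 stayed within 1.5 times the reported count and 23 moved by more. Keeping peaks with a −log10 q-value from 2 upwards, promoters with H3K27me3 in aged HSCs fell to 6 (11 genes), as did those at both ages (6), H2AK119ub1 was left at 1 young and 7 aged promoters (2 and 13 genes) and at 0 at both ages, both Polycomb marks at 1 young and 2 aged promoters, and H3K4me3 with H3K27me3 at 0 aged promoters. With promoters of 2 kb either side, H2AK119ub1 was at 4 young promoters, and 4 had it at both ages. With 500 bp either side, both Polycomb marks were at 7 aged promoters and H3K4me3 with H3K27me3 at 1, the latter also with 1 start site per gene.

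With the young and aged lists shortened to equal length, H3K4me3 was at 4 young promoters (4 genes), H2AK119ub1 at 5 aged promoters (8 genes) and at 1 at both ages, both Polycomb marks at 4 aged promoters, and H3K4me3 with H3K27me3 at 2 young promoters. The difference of aged minus young then reversed for H3K4me3 (from -5 to 1, for promoters and for genes) and for genes with H2AK119ub1 (from 12 to -1). Young H3K27me3 was then at 19 promoters (against 11.2% of all genes). The other 30 of 33 recomputed differences between the ages kept their sign. All GENCODE transcripts, an alternative chosen after seeing the data, moved no count by more than 1.5 times.

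No paired analysis was possible because the columns analysed here are pooled lists that carry no replicate, and leaving out a replicate was not possible for the same reason. The lists give no depth for the broad marks, so a promoter that is not listed cannot be called free of the mark, and age cannot be told apart from depth. Lists of equal length left 19 young and 15 aged promoters with H3K27me3.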

Other observations

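Proteins other than collagens that contain a collagen-like helix, such as the complement component C1q, ficolins, collectins and adiponectin, were looked at after the values of the collagen genes had been seen. Of 24 such genes, H3K27me3 was listed at 7 promoters in young HSCs (29.2%, against 16.0% of all genes) and 3 in aged HSCs (12.5%, against 8.24%). H2AK119ub1 was listed at none in young HSCs (against 1.91%) and 5 in aged HSCs (20.8%, against 14.0%). H3K4me3 was listed at none in young HSCs (against 33.8%) and 1 in aged HSCs (4.17%, Emilin1, against 23.3%). No mark was listed at 12 (against 45.0% of all genes). Gldn held 3 young H3K27me3 regions and 1 aged region at its promoter, and Colec12, a scavenger receptor, 2 and 1. The macrophage receptor Marco had H3K27me3 in the aged list alone, which no collagen gene did. The C1q chain genes C1qa and C1qc had young H3K27me3 and aged H2AK119ub1, respectively, and C1qb, their neighbor, had neither.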
